A study of Mus musculus with 12 samples.

Results

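H19 and 9 other imprinted genes that control growth (Igf2, Dlk1, Meg3, Peg3, Plagl1, Cdkn1c, Grb10, Mest, and Igf2r) were followed in 12 mouse livers by total RNA sequencing. These 10 of the 40551 genes in the files were chosen by symbol. The others belong with H19 to a known network of imprinted growth genes. H19 itself was chosen because it was higher after Mcl1 deletion in these same livers, mainly where Sting1 was intact. The H19 values are therefore described without a test, and the comparisons that follow ask whether the other imprinted genes moved with it.

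The livers came from 4 genotypes with 3 mice each: WT, Mcl1Δhep, Mcl1Δhep Sting1-/-, and Sting1-/-. In Mcl1Δhep mice, Alb-Cre removes the floxed prosurvival gene Mcl1 in hepatocytes, so the other liver cells keep it, whereas Sting1, the adaptor of cytosolic DNA sensing, is lost in the whole body. The labels give no age; for Mcl1Δhep and WT mice the study's text places the liver transcriptomes at 2 months, and the age of the Sting1-/- livers is not given in the sources used here. Mice of both sexes were used. The comparisons were: Mcl1Δhep against WT, Mcl1Δhep Sting1-/- against Sting1-/-, Mcl1Δhep Sting1-/- against Mcl1Δhep, and Sting1-/- against WT, and a further test asked whether the effect of Mcl1 deletion differed between the Sting1 backgrounds.

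Imprinted genes are expressed mainly from the maternal or from the paternal copy, and most of the growth genes among them act in the fetus. H19 is a maternally expressed long noncoding RNA that is abundant in fetal liver and silenced after birth, next to the paternally expressed growth factor gene Igf2. Paternally expressed growth genes such as Igf2 promote fetal growth, and maternally expressed genes such as Igf2r, Grb10, and Cdkn1c restrain it.

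H19 (ENSMUSG00000000031, chr7:142129262-142133957 in GRCm39, minus strand) also holds the hairpin of miR-675, which is cut from the H19 transcript. The hairpin lies at chr7:142130801-142130884, 3073 bases from the 5′ end of H19, and all 84 of its bases are exonic in H19. Its mature sequences are shown because this microRNA is a known product of the member with the largest change; they come from RefSeq (GRCm39), and capitals mark the seed (bases 2 to 8).
mmu-miR-675-5p: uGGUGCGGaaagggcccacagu
mmu-miR-675-3p: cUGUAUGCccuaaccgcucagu
Neither seed is shared with another of the 1679 mature microRNAs of the same RefSeq table. The libraries measure the long transcript and not the mature microRNA.

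The libraries held 28826367 to 45266387 counts on genes. Mcl1 ran from 90.2 to 104 CPM (reads on a gene scaled to library size, with TMM factors) in WT and from 25 to 34.0 CPM in Mcl1Δhep livers, and it was likewise lower in Mcl1Δhep Sting1-/- (18.1 to 26.0 CPM) than in Sting1-/- livers (77.0 to 90.1 CPM). Sting1 ran from 2.11 to 2.53 CPM in WT and from 1.16 to 2.70 CPM in the livers labelled Sting1-/-, so its counts do not separate these groups. With Mcl1 deleted the groups did not overlap: Sting1 was at least 3.67 CPM in Mcl1Δhep and at most 2.53 CPM in Mcl1Δhep Sting1-/- livers. The paper reports a check of the knockout in Sting1-/- mice by Western blot and by the response of splenocytes to a STING1 agonist. For the single livers sequenced here, the Sting1 genotype was taken from the labels. The type of the Sting1 allele is not given in the sources used here. The 5 hepatocyte markers were detected in all 12 livers. Mcl1Δhep replicate 3 carried markers of skeletal muscle (1373 CPM summed over 6 genes, against at most 7.68 CPM in the other 11 livers) and of pancreas (5526 CPM over 5 genes, against at most 30.9 CPM). Small structured RNA took 1.55% and 2.77% of counts in Mcl1Δhep replicates 3 and 2, against 0.314% in Mcl1Δhep replicate 1. It took 0.192 to 0.420% in WT livers and at most 0.980% in the other groups. This share was thus raised in Mcl1Δhep replicates 2 and 3, while replicate 1 lay within the WT range. Its part in the results was not tested beyond its use as a covariate. Y-linked genes were expressed in WT replicates 2 and 3 and in Mcl1Δhep Sting1-/- replicate 1, and in none of the Mcl1Δhep or Sting1-/- livers above 0.190 CPM. By these genes, sex was not balanced over the genotypes. In fits without WT replicate 1, sex cannot be told apart from genotype in the comparisons with WT.

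H19 was near the detection limit in WT livers and at a moderate level in Mcl1Δhep livers. It reached 55.5, 23.1, and 37.3 CPM in the 3 Mcl1Δhep livers (2684, 756, and 1180 counts), against 1.5, 0.267, and 0.0660 CPM in WT livers (57, 9, and 2 counts). In Mcl1Δhep Sting1-/- livers it was 0.969, 1.12, and 6.10 CPM, and in Sting1-/- livers 1.57, 0.371, and 0.386 CPM. The Mcl1Δhep livers stood above all others: the lowest of them was 3.79-fold the highest liver of the other 3 groups, which overlapped among themselves.

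The log2 fold change of H19 with Mcl1 deletion was 5.91 (SE 0.98) where Sting1 was intact, and 1.84 (SE 0.90) on the Sting1-/- background. The difference between these effects was 4.07 (SE 1.29). Between the groups that both lacked Mcl1, H19 was lower in Mcl1Δhep Sting1-/- than in Mcl1Δhep livers, with a log2 fold change of -3.82 (SE 0.86). Without Mcl1 deletion the Sting1 genotypes differed by 0.25 (SE 0.999). The values describe the contrasts by which the genes were chosen, among them the difference between the Sting1 backgrounds, and several rest on individual livers. Without WT replicate 1, the highest of the WT livers, the effect with Sting1 intact was 7.79. The WT livers left in that fit all expressed Y-linked genes and the Mcl1Δhep livers did not, so sex and genotype cannot be told apart there. Without Mcl1Δhep Sting1-/- replicate 3 the effect on the Sting1-/- background was 0.48, and without Sting1-/- replicate 1 it was 2.84. The difference between these effects ran from 3.07 (without Sting1-/- replicate 1) to 5.95 (without WT replicate 1) when 1 liver was left out. The value for Sting1 genotypes without Mcl1 deletion had no stable sign: it was -0.74 without Sting1-/- replicate 1, -0.10 and -0.24 without WT replicates 2 and 3, and 2.14 without WT replicate 1.

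The markers of some other cell types also moved with these groups. Stellate cell and fibroblast markers (7 of 7 detected) summed to 593 to 695 CPM in Mcl1Δhep and 260 to 441 CPM in WT livers, and to 441 to 657 CPM in Mcl1Δhep Sting1-/- and 282 to 367 CPM in Sting1-/- livers. Cycling cell markers (4 of 4) summed to 36.7 to 124 CPM in Mcl1Δhep, 40.0 to 136 CPM in Mcl1Δhep Sting1-/-, 11.8 to 18.0 CPM in Sting1-/-, and 8.84 to 9.79 CPM in WT livers. Neutrophil markers (3 genes) summed to 5.90 to 17.4 CPM in Mcl1Δhep livers and to at most 4.22 CPM in all others, with 1 of the 3 at 0 in 9 of the 12 livers. The median log2 fold change in Mcl1Δhep against WT livers was -0.20 for hepatocyte, -0.07 for cholangiocyte, -0.03 for endothelial, -0.06 for B cell, and -0.32 for erythroid markers. It was 0.52 for macrophage and 0.42 for T and NK cell markers. Called higher were 4 of 7 stellate cell and fibroblast, 4 of 4 cycling cell, 2 of 4 macrophage, and 2 of 2 tested neutrophil markers, beside 10.8% of all genes. Of the hepatocyte markers, 1 of 5 was called lower, beside 9.43% of all genes. The part of these cell types in the H19 level was not tested, and in bulk tissue fewer cells of a type and less RNA per cell cannot be told apart. Muscle markers were at 0.497 and 1.04 CPM in Mcl1Δhep replicates 1 and 2, and without replicate 3 the log2 fold change of H19 against WT was 5.94. With Y-linked expression in the model it was 4.96 (SE 0.90), and the difference between the Sting1 backgrounds was 2.60 (SE 1.19). With the share of small structured RNA in the model these values were 7.26 (SE 1.11) and 5.67 (SE 1.52).

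Reads on the hairpin followed those on H19. The annotation lists the hairpin as a gene of its own, Mir675, with 247, 70, and 101 counts in the Mcl1Δhep livers and 0 to 19 counts in the other 9 livers. Since each base of the hairpin is also an exonic base of H19, these are reads of the H19 transcript and no independent measurement. They equal 9.05% of the H19 counts in Mcl1Δhep livers, while the hairpin makes up 2.95% of the exonic bases of H19.

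Igf2 (chr7:142204503-142220694), the fetal growth factor that lies 86.7 kb upstream of H19, was close to the detection limit everywhere. It had 18, 8, and 5 counts in WT, 12, 15, and 17 in Mcl1Δhep, 12, 10, and 20 in Mcl1Δhep Sting1-/-, and 7, 5, and 8 in Sting1-/- livers. Its largest difference was on the Sting1-/- background, where the livers did not overlap, with 0.244 to 0.547 CPM against 0.133 to 0.204 CPM. The log2 fold change there was 1.15 (SE 0.50, adjusted p = 0.418), and with Sting1 intact 0.45 (SE 0.48, adjusted p = 0.519), with overlapping livers. A second annotated gene, Gm49394, shares 3599 of the 6162 exonic bases of Igf2 on the same strand and had 4 to 20 counts, so the 2 cannot be counted apart here.

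Igf2r (chr17:12901293-12988614), the receptor that takes IGF2 out of circulation for lysosomal degradation, was by far the most abundant of the other members. It reached 102, 120, and 118 CPM in WT, 111, 89.5, and 71.8 CPM in Mcl1Δhep, 120, 120, and 123 CPM in Mcl1Δhep Sting1-/-, and 106, 102, and 79.3 CPM in Sting1-/- livers. Mcl1Δhep livers overlapped WT, whereas each Mcl1Δhep Sting1-/- liver was above each Sting1-/- and each Mcl1Δhep liver. The log2 fold change with Mcl1 deletion was -0.32 (SE 0.17, adjusted p = 0.195) with Sting1 intact and 0.33 (SE 0.17, adjusted p = 0.509) on the Sting1-/- background, a difference of -0.65 (SE 0.24, adjusted p = 0.297). The outcome depended on Mcl1Δhep replicate 1, whose share of small structured RNA lay within the WT range, unlike that of replicates 2 and 3. Without it the effect with Sting1 intact was -0.49 (adjusted p = 0.0326), the difference between backgrounds -0.83 (adjusted p = 0.0331), and Mcl1Δhep Sting1-/- against Mcl1Δhep 0.59 (adjusted p = 0.0251). Calls over all genes also rose without that liver, from 3050 to 5232 with Sting1 intact. With 1 liver left out, they reached at most 1574 for the difference and 3108 for Mcl1Δhep Sting1-/- against Mcl1Δhep, each 0 in the reported fit.

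Grb10 (chr11:11880498-11988683) encodes an adaptor that dampens signaling from the insulin and insulin-like growth factor receptors. Its livers ran from 6.04 to 9.89 CPM in WT, 6.61 to 9.30 CPM in Mcl1Δhep, 6.63 to 7.12 CPM in Mcl1Δhep Sting1-/-, and 7.19 to 8.47 CPM in Sting1-/-. The log2 fold changes with Mcl1 deletion were -0.03 (SE 0.19, adjusted p = 0.917) and -0.16 (SE 0.19, adjusted p = 0.842), with a 95% interval of -0.45 to 0.38 for the first.

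Cdkn1c (chr7:143012069-143014806), which encodes the cyclin-dependent kinase inhibitor p57 and is located 881 kb from H19 in the same imprinted region, varied widely among WT livers. It had 3.83, 1.01, and 1.78 CPM in WT, 4.80, 3.09, and 3.76 CPM in Mcl1Δhep, 2.31, 3.61, and 2.33 CPM in Mcl1Δhep Sting1-/-, and 2.39, 4.09, and 3.23 CPM in Sting1-/- livers. WT replicate 1 lay within the Mcl1Δhep range, and the log2 fold change was 0.81 (SE 0.41, adjusted p = 0.172). Without WT replicate 1 it was 1.48 (adjusted p = 0.0201), in a fit whose WT livers, unlike the Mcl1Δhep livers, all expressed Y-linked genes. On the Sting1-/- background it was -0.23 (SE 0.41, adjusted p = 0.898).

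Mest (chr6:30723546-30752058), a paternally expressed gene for a hydrolase-fold protein, was the only one of the 7 tested members besides H19 that was called. It had 6.79, 3.46, and 4.11 CPM in Mcl1Δhep livers and 2.56, 2.05, and 2.34 CPM in WT livers, with no overlap. In Mcl1Δhep Sting1-/- livers it had 3.14, 3.97, and 3.50 CPM, and in Sting1-/- livers 2.47, 3.50, and 3.47 CPM, so those groups overlapped. Mest rose with Mcl1 deletion where Sting1 was intact, with a log2 fold change of 1.05 (SE 0.26, adjusted p = 0.0183, n = 3 per group, edgeR). On the Sting1-/- background the change was 0.17 (SE 0.26, adjusted p = 0.882), and the difference between these effects, 0.88 (SE 0.37), was not called (adjusted p = 0.322).

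The Mest call had limits. It was lost without WT replicate 2 (0.96, adjusted p = 0.0755) or WT replicate 3 (1.05, adjusted p = 0.0548), with Y-linked expression in the model (0.90, adjusted p = 0.0957), and in a fit of these 2 groups alone (1.07, adjusted p = 0.0684). Mest also shares 3850 of its 8070 exonic bases with Copg2 on the opposite strand, and strand use in counting is not given in the sources used here. Copg2, a coat protein gene with 760 to 2027 counts per liver against 69 to 328 for Mest, moved the other way, from 48.5 ± 2.61 CPM in WT to 32.2 ± 7.85 CPM in Mcl1Δhep livers (SD, n = 3), a log2 fold change of -0.59 (SE 0.17, adjusted p = 0.033).

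Plagl1 (chr10:12936248-13007438) and Peg3 (chr7:6706882-6733468) are paternally expressed zinc finger genes, and Plagl1 is known to act on other imprinted genes. Plagl1 had 1.61, 1.41, and 0.885 CPM in Mcl1Δhep and 0.897, 0.593, and 0.726 CPM in WT livers, and the lowest Mcl1Δhep liver fell just below the highest WT liver. The log2 fold change was 0.82 (SE 0.32, adjusted p = 0.0894), and 1.03 (adjusted p = 0.0497) without Mcl1Δhep replicate 3. On the Sting1-/- background it was 0.27 (SE 0.33, adjusted p = 0.844), with 0.635 to 0.829 CPM against 0.436 to 0.796 CPM. Peg3 ran from 1.98 to 4.80 CPM in WT and from 2.34 to 3.37 CPM in Mcl1Δhep livers, with log2 fold changes of -0.16 (SE 0.29, adjusted p = 0.714) and, on the Sting1-/- background, -0.13 (SE 0.29, adjusted p = 0.923). Peg3 livers overlapped in all 4 comparisons.

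Dlk1 (chr12:109418749-109429262) and Meg3 (chr12:109506877-109538165) belong to a single imprinted cluster and were too low for the main test. Dlk1, a paternally expressed surface protein of fetal liver, had 11, 6, and 12 counts in Mcl1Δhep livers, 2, 0, and 0 in WT, 1, 4, and 1 in Mcl1Δhep Sting1-/-, and 1, 0, and 3 in Sting1-/- livers. Each Mcl1Δhep liver was above each other liver, at 0.184 to 0.379 CPM against at most 0.0975 CPM. Summed over the livers of a group, the rate in Mcl1Δhep was 13.1-fold that in WT (95% exact conditional interval 3.32 to 113, from 29 and 2 counts), and in Mcl1Δhep Sting1-/- it was 1.58-fold that in Sting1-/- livers (0.376 to 7.63, from 6 and 4 counts). These intervals cover counting error only. In a fit without the filter on low counts, over 24525 genes, the Dlk1 change with Sting1 intact had an adjusted p of 0.0425. Of the 29 counts in Mcl1Δhep livers, 12 came from replicate 3, the liver with muscle and pancreas markers. That liver also had 10 counts of the insulin gene Ins2, which had none in any other liver. Neither the Dlk1 ratio nor its adjusted p was computed without it, and the part of such tissue in the Dlk1 counts was not tested.

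Meg3, the maternally expressed noncoding RNA of the cluster, had 7, 9, and 3 counts in Mcl1Δhep and 2, 2, and 4 counts in WT livers, and 0 to 4 counts in the others. Its rate in Mcl1Δhep was 2.15-fold that in WT (95% interval 0.898 to 5.67), which is not a detectable difference at this depth.

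**Figure D1:**
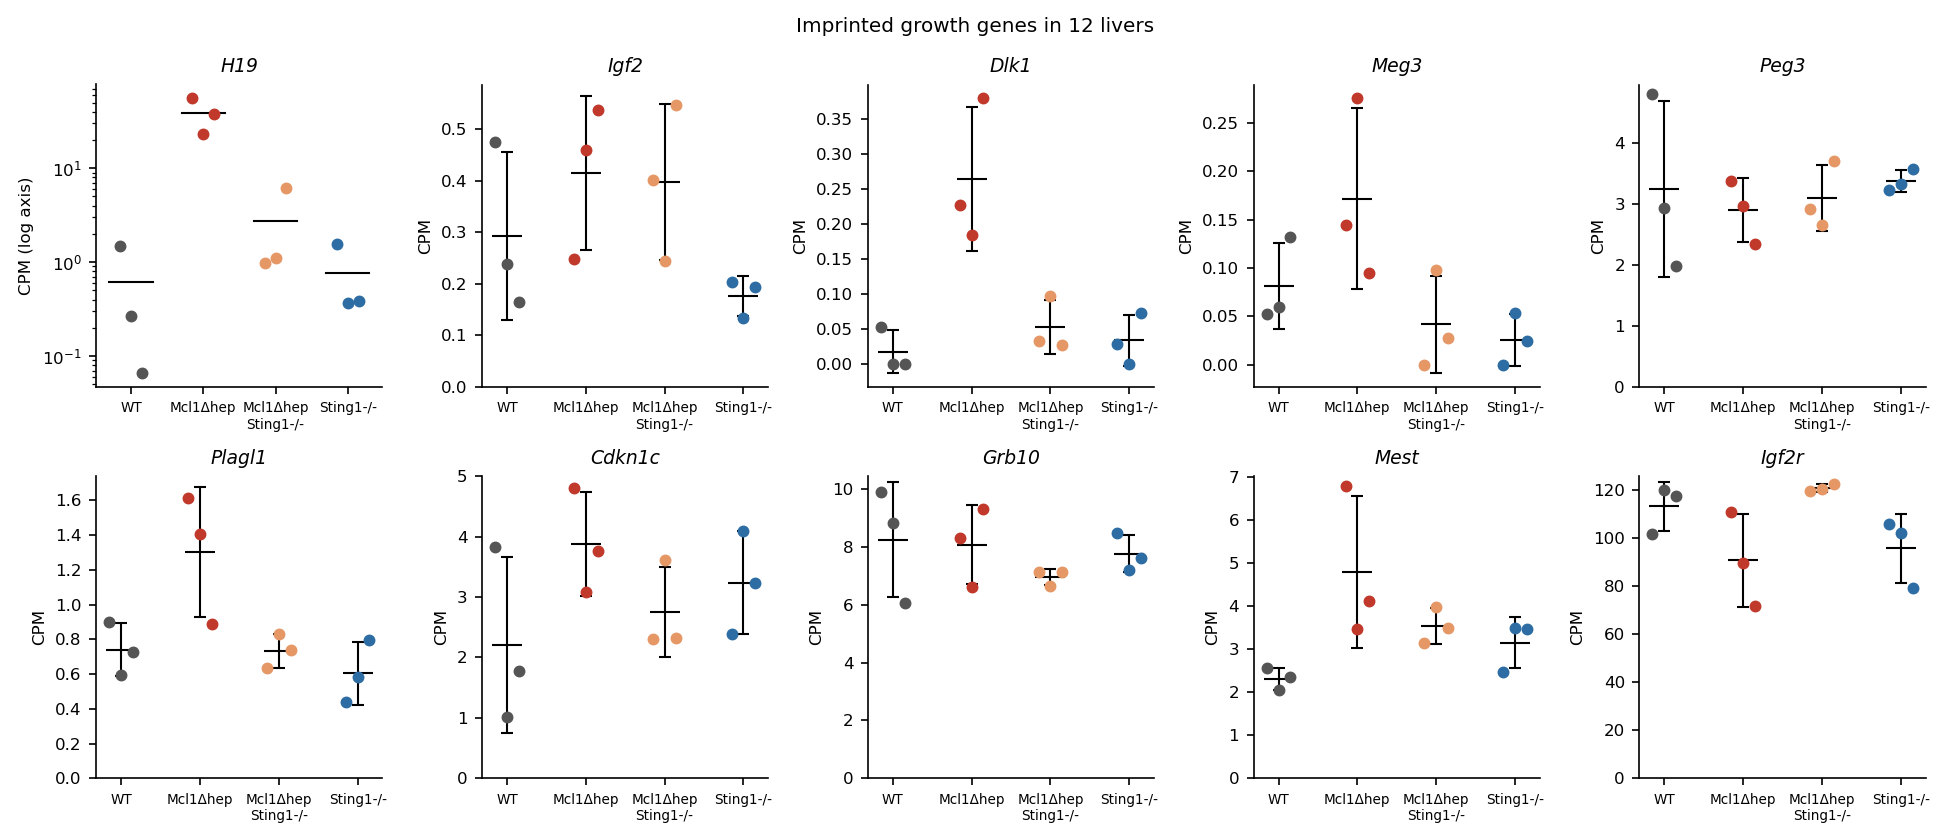
Level of the 10 imprinted growth genes in CPM for each liver (points) by genotype, 3 livers each. Horizontal lines are group means and, except for H19, vertical bars are SD; the H19 axis is logarithmic. The Mcl1Δhep livers lie apart from all others for H19 (23.1 to 55.5 CPM) and, at few counts, for Dlk1 (0.184 to 0.379 CPM), and above WT for Mest.

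Over the members, 1 of the 7 tested genes other than H19, Mest, was called with Mcl1 deletion where Sting1 was intact (edgeR, adjusted p under 0.05), beside 20.2% of all 15070 tested genes. At an unadjusted p under 0.05 there were 2 (Mest and Plagl1), against 36.9% of all genes, and DESeq2 also called Mest alone. Of the same 7, Mest was free of overlap between livers, against 33.3% of all genes. The median log2 fold change of the 7 was 0.45 beside a median of -0.00 over all genes. With Sting1 lost, 0 of 7 were called, against 0.803% of all genes, with 1 (Igf2) at an unadjusted p under 0.05 (11.3% of all genes) and 0 called by DESeq2, and the median was 0.17. Livers did not overlap for Igf2 and Igf2r (higher) and Grb10 (lower) there, against 22.3% of all genes.

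None of these 7 members passed the threshold between the Sting1 genotypes, whether Mcl1 was deleted or intact. With Mcl1 deleted, edgeR called 0 of 7 members and 0% of all genes, with 2 members (Plagl1 and Igf2r) at an unadjusted p under 0.05 (20.6% of all genes), and DESeq2 called 0 of the 7. Plagl1 had a log2 fold change of -0.83 (SE 0.32, adjusted p = 0.187) and Igf2r 0.41 (SE 0.17, adjusted p = 0.206), both without overlap between livers, as seen in 18.2% of all genes. With Mcl1 intact, edgeR called 0 of 7 members and 0% of all genes, with 0 members at an unadjusted p under 0.05 (5.45% of all genes), and DESeq2 called 0; no member was free of overlap, against 12.5% of all genes. For the difference between the Mcl1 effects, edgeR called 0 of 7 members and 0% of all genes, with 2 members (Mest and Igf2r) at an unadjusted p under 0.05 (14.4% of all genes), and DESeq2 called 0. The comparisons share the same 4 groups of livers.

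**Figure D2:**
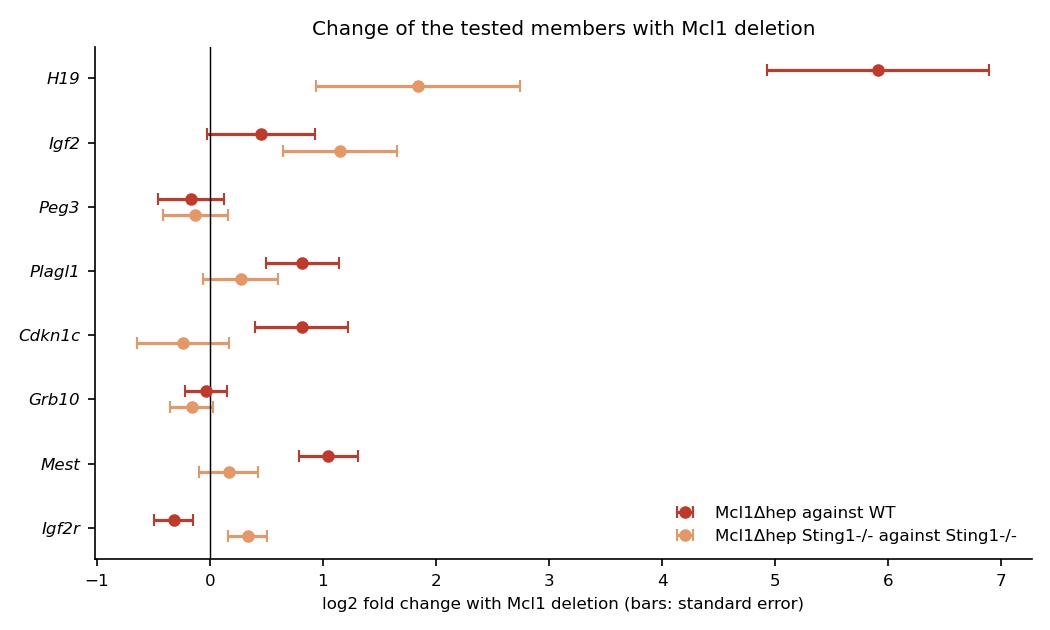
Log2 fold change with Mcl1 deletion (x axis) of the 8 members that passed the filter on low counts, with Sting1 intact (red) and on the Sting1-/- background (orange); bars are the standard errors of edgeR over 3 livers per group. H19 changed by 5.91 and 1.84, Mest by 1.05 and 0.17, and the remaining values lie between -0.32 and 1.15.

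Corrected for transcript length, the order of the members was led by Igf2r in every group except Mcl1Δhep. In WT livers Igf2r reached 43.3 ± 1.94 TPM (levels corrected for exon length and library size; SD, n = 3), well above Cdkn1c at 3.75 ± 2.66 and Grb10 at 2.91 ± 0.808 TPM, which overlapped each other. Mest, Peg3, H19, and Plagl1 followed at 1.03, 0.864, 0.804, and 0.312 TPM, each overlapping the next, then Igf2 at 0.174, Meg3 at 0.0150, and Dlk1 at 0.0111 TPM. In Mcl1Δhep livers H19 moved from place 6 to place 1, at 49.1 ± 28.6 TPM, overlapping Igf2r at 34.2 ± 13 TPM, and Dlk1 stood above Meg3 without overlap. H19 took place 3 in Mcl1Δhep Sting1-/- livers (3.54 ± 3.64 TPM), between Cdkn1c and Grb10 and overlapping both, and place 5 in Sting1-/- livers (0.929 ± 0.819 TPM).

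A wider list of 65 further genes that are imprinted in at least 1 mouse tissue was examined in the same way. Of these, 60 were found by name and 39 were tested, among them Mir675, which shares its reads with H19 and is left out of the counts that follow. With Mcl1 deletion where Sting1 was intact, 8 of the remaining 38 were called, 4 higher and 4 lower, beside 10.8% higher and 9.43% lower over all genes. The median of the 38 was -0.01. Counted with Mir675, the 9 calls fell to 5 with Y-linked expression in the model, 2 in a fit of the 2 groups alone, and 1 with the share of small structured RNA in the model.

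The 4 that rose were Asb4, Rian, Tssc4, and Dcn. Asb4, a maternally expressed subunit of ubiquitin ligases, had 1.28, 0.734, and 0.854 CPM in Mcl1Δhep and 0.0890 to 0.317 CPM in WT livers (log2 fold change 2.09, SE 0.47, adjusted p = 0.0121). Rian, a maternally expressed noncoding RNA of the cluster of Dlk1 and Meg3, had 27, 49, and 62 counts in Mcl1Δhep and 14, 17, and 2 counts in WT livers (2.05, SE 0.56, adjusted p = 0.027). The Rian call was lost without any of Mcl1Δhep replicates 2 or 3 or WT replicates 1 or 3 (adjusted p = 0.0512 to 0.0854), in the fit of 2 groups (0.096), with the Y-linked covariate (0.122), and with the small RNA covariate, where the change was 1.21 (adjusted p = 0.469). The Asb4 call was lost with the small RNA covariate (adjusted p = 0.0589). Tssc4, which lies 489 kb from H19, changed by 0.67 (SE 0.20, adjusted p = 0.0365), and Dcn, a matrix proteoglycan made by stellate cells, by 0.52 (SE 0.15, adjusted p = 0.0341).

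The 4 that fell were Trappc9, Snurf, Copg2, and Cd81. Trappc9, a vesicle trafficking gene, fell from 16.8 to 21.1 CPM in WT to 11.5 to 13.1 CPM in Mcl1Δhep livers (-0.66, SE 0.12, adjusted p = 0.00563). Snurf, the upstream reading frame of the Snrpn locus, changed by -0.71 (SE 0.22, adjusted p = 0.0385), and Cd81, a tetraspanin gene 472 kb from H19, by -0.59 (SE 0.15, adjusted p = 0.0229). DESeq2 also called these 4 genes and Tssc4 and Dcn, and their single calls were not followed in the other alternative fits. By the copy known as expressed in at least 1 mouse tissue, 4 of 23 tested maternally expressed genes were called higher and 3 lower. Of 15 tested paternally expressed genes 1 was called (Snurf, lower), beside the same 10.8% higher and 9.43% lower over all genes. The counts do not tell the copies apart, so which copy was expressed in these livers was not measured.

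Where Sting1 was lost, none of the 38 were called by edgeR with Mcl1 deletion, with 2 at an unadjusted p under 0.05 (11.3% of all genes), and DESeq2 called 1 (Dcn). Dcn changed there by 0.51 (SE 0.15, adjusted p = 0.183), much as with Sting1 intact, while Asb4 changed by 0.38 (SE 0.46, adjusted p = 0.844) and Rian by 0.00 (SE 0.57, adjusted p = 1). In the comparisons of Sting1 genotypes and in the difference between the Mcl1 effects edgeR also called none of the 38. At an unadjusted p under 0.05 there were 12 with Mcl1 deleted (20.6% of all genes), 3 with Mcl1 intact (5.45%), and 8 for the difference (14.4%), and DESeq2 called 2 (Rian and Snurf), 0, and 0. None of the 8 genes called with Sting1 intact is thus shown to depend on Sting1; the difference for Asb4 was 1.71 (SE 0.66, adjusted p = 0.306) and for Rian 2.05 (SE 0.82, adjusted p = 0.312).

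**Figure D3:**
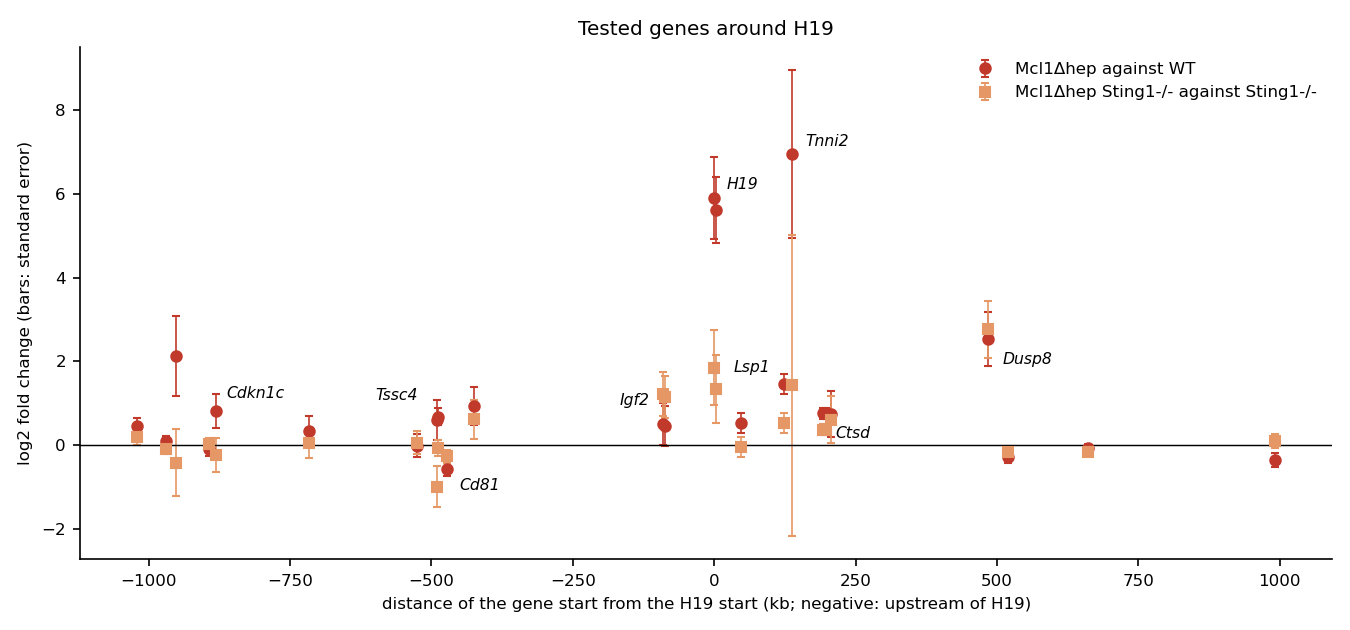
Log2 fold change with Mcl1 deletion of tested genes within 1000 kb of H19, against the distance of each gene start from that of H19, with standard errors (3 livers per group). H19 (5.91 with Sting1 intact) and the Mir675 hairpin inside it stand above their neighbors, apart from the muscle gene Tnni2 (6.96), whose reads come almost wholly from Mcl1Δhep replicate 3.

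Around H19, 78 annotated genes of the files lie within 1000 kb, and 23 besides H19 and Mir675 were tested. With Sting1 intact 6 of the 23 were called higher and 1 lower, beside 10.8% higher and 9.43% lower over all genes. The called genes were Lsp1 (1.46, SE 0.24, adjusted p = 0.0033), a leukocyte actin-binding gene 123 kb away, Ctsd (0.76, SE 0.13, adjusted p = 0.00455), a lysosomal protease gene, Gm49369, Dusp8, Tnni2, Tssc4, and Cd81. Tnni2 encodes a skeletal muscle troponin and was carried by the replicate with muscle markers. Gm49369 overlaps the Ctsd position and changed by the same amount (0.76, SE 0.13, adjusted p = 0.00424). In the other comparisons and for the difference between the Mcl1 effects edgeR called none of the 23. Igf2, Tspan32, Kcnq1, Kcnq1ot1, and Cdkn1c, imprinted genes of the same stretch, were not called in any comparison.

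Fetal liver genes that share the postnatal silencing of H19 formed a list with their known repressors (Zhx2, Zbtb20, Zfhx3, Afp, Gpc3, Lpl, and Cd24a). With Sting1 intact, 2 of 7 rose and 2 fell, beside 10.8% higher and 9.43% lower over all genes. Zhx2, a repressor known to silence Afp and H19 in adult liver, had 12.6, 10.9, and 13.2 CPM in Mcl1Δhep and 18.1, 23.1, and 17.7 CPM in WT livers, and it fell by 0.68 on the log2 scale (SE 0.14, adjusted p = 0.00783). The Zhx2 call was lost in the fit of 2 groups (adjusted p = 0.0591) and with the small RNA covariate (-0.53, adjusted p = 0.155). Zbtb20, another repressor of Afp, had 99.8, 58.0, and 58.0 CPM against 117, 123, and 159 CPM, and fell by 0.89 (SE 0.22, adjusted p = 0.017).

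Both repressors were thus lower in each Mcl1Δhep than in each WT liver, and Afp and Lpl were higher. Afp, the fetal serum protein alpha-fetoprotein, had 3.17, 5.54, and 2.40 CPM in Mcl1Δhep and 1.11, 1.31, and 1.75 CPM in WT livers (1.42, SE 0.36, adjusted p = 0.019). Lpl, the lipoprotein lipase gene that is silenced in adult hepatocytes, had 131, 78.4, and 77.0 CPM against 12, 16.9, and 20.1 CPM (2.55, SE 0.49, adjusted p = 0.00645). Gpc3, a fetal surface proteoglycan gene that Zhx2 is also known to repress, was not called, at 0.890, 1.19, and 2.31 CPM against 2.82, 2.73, and 1.12 CPM (-0.62, SE 0.41, adjusted p = 0.294). The Zbtb20 call was lost without Mcl1Δhep replicate 2 (adjusted p = 0.074) or WT replicate 3 (0.0664), and the Afp call without Mcl1Δhep replicate 2 or WT replicate 1 or 2 (adjusted p = 0.0538 to 0.0886). Both were lost in the fit of 2 groups (adjusted p = 0.0812 and 0.0527) and with the small RNA covariate, where Zbtb20 was -0.56 (adjusted p = 0.246) and Afp 0.93 (adjusted p = 0.271), and Zbtb20 also with the Y-linked covariate (adjusted p = 0.0948). Zfhx3 and Cd24a were not called (adjusted p = 0.206 and 0.315).

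On the Sting1-/- background edgeR called 0 of 7 (0.803% of all genes), with 2 at an unadjusted p under 0.05 (11.3%), and DESeq2 called 2 (Afp and Lpl). Afp changed by 1.37 (SE 0.37, adjusted p = 0.126) and Lpl by 2.14 (SE 0.48, adjusted p = 0.0737), close to their changes with Sting1 intact, with differences of 0.04 (SE 0.52, adjusted p = 0.978) and 0.41 (SE 0.66, adjusted p = 0.796). Zhx2 changed by -0.24 (SE 0.14, adjusted p = 0.582) and Zbtb20 by 0.27 (SE 0.22, adjusted p = 0.732), and the difference for Zbtb20 was -1.16 (SE 0.31, adjusted p = 0.253). The Sting1-/- livers, at 14.9 to 17.6 CPM of Zhx2 and 89.7 to 107 CPM of Zbtb20, were each already below each WT liver. Against WT, all 7 genes of the list had a negative log2 fold change in Sting1-/- livers. Of the 7, 3 were lower without overlap, against 12.5% of all genes free of overlap. In the comparisons of Sting1 genotypes and for the difference between the Mcl1 effects edgeR called none of the 7. At an unadjusted p under 0.05 there were 2 with Mcl1 deleted (20.6% of all genes), 1 with Mcl1 intact (5.45%), and 2 for the difference (14.4%), and DESeq2 called 1 (Zbtb20), 0, and 1 (Zbtb20).

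**Figure D4:**
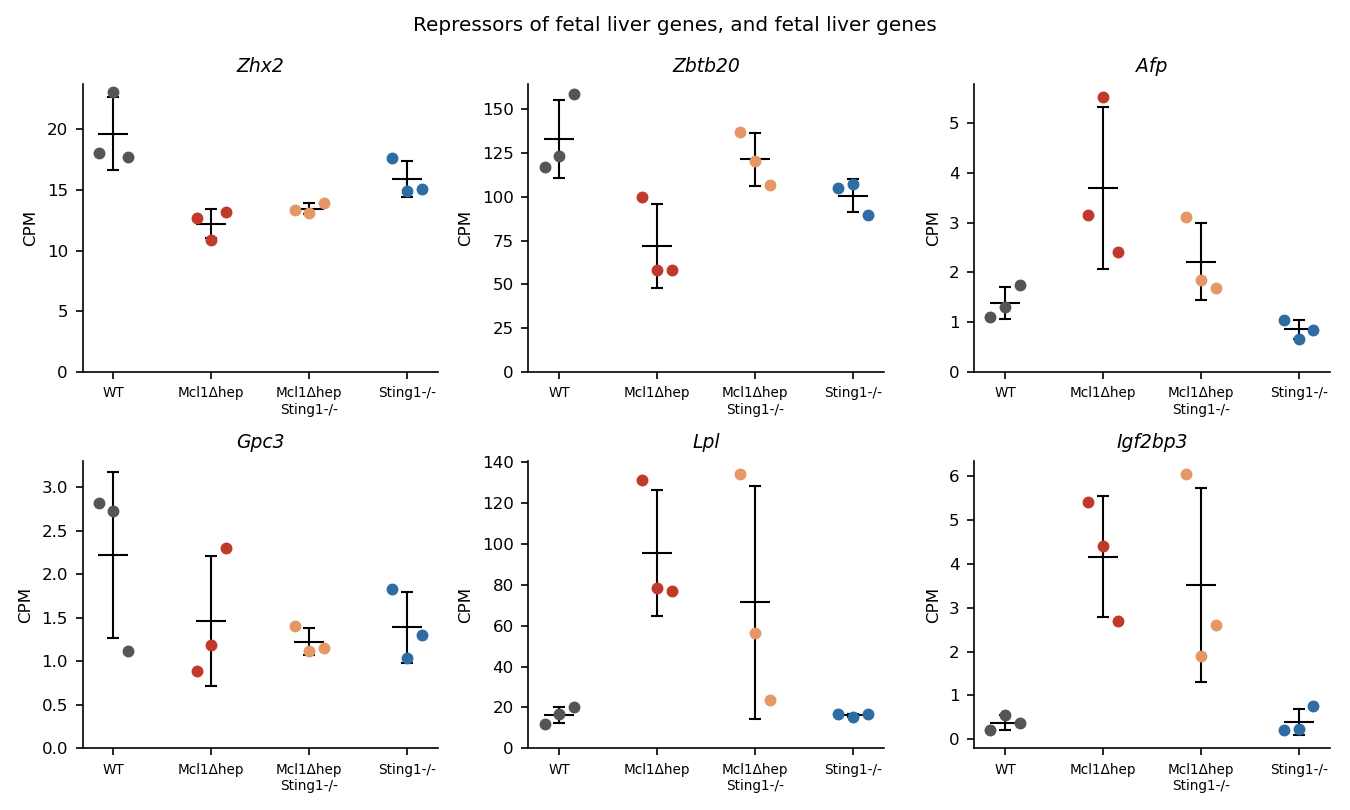
Level in CPM of 2 repressors of fetal liver genes (Zhx2, Zbtb20), of Afp, Gpc3, and Lpl, which are silenced or reduced after birth, and of the fetal RNA-binding protein gene Igf2bp3, for each liver by genotype (points; lines and bars are mean and SD, 3 livers each). Each Mcl1-deleted liver had more Lpl (23.4 to 135 CPM) and Igf2bp3 (1.90 to 6.05 CPM) than each liver with Mcl1, and the mean of Zhx2 was lowest in Mcl1Δhep livers.

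Among 15 tested factors that set or keep imprints, Uhrf1 rose and Zfp445 fell with Sting1 intact, and 13 were not called, beside 20.2% of all genes called. Uhrf1, which guides maintenance DNA methylation during replication, had 6.60, 5.6, and 5.47 CPM in Mcl1Δhep and 1.08, 1.66, and 1.12 CPM in WT livers (2.19, SE 0.46, adjusted p = 0.00878). Zfp445, a zinc finger protein that protects imprints, had 55.2, 36.3, and 32.1 CPM against 65.9, 97.2, and 92.7 CPM (-1.05, SE 0.21, adjusted p = 0.00737). Both calls were lost with the Y-linked covariate (adjusted p = 0.0607 for Uhrf1 and 0.0535 for Zfp445) and with the small RNA covariate (adjusted p = 0.0725 and 0.145). On the Sting1-/- background Uhrf1 rose by a similar amount (2.40, SE 0.45, adjusted p = 0.038), with 5.25, 15.6, and 4.05 CPM against 1.09 to 1.89 CPM. The Uhrf1 call there was lost in 8 of the 12 fits without 1 library (adjusted p up to 0.217). Zfp445 changed on that background by 0.05 (SE 0.21, adjusted p = 0.961), with 51.5 to 65.9 CPM against 53.3 to 59.9 CPM. Each Sting1-/- liver, with Mcl1 intact, was already below each WT liver for Zfp445. Groups were free of overlap in that comparison for 12.5% of all genes. Uhrf1 is also known as a gene of cycling cells, whose markers were higher in both Mcl1-deleted groups, and their part in its change was not tested. In the 3 other comparisons edgeR called none of the 15, with 2 at an unadjusted p under 0.05 with Mcl1 deleted (20.6% of all genes), 2 with Mcl1 intact (5.45%), and 1 for the difference (14.4%), and DESeq2 called 0, 0, and 1 (Zfp445).

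In the insulin-like growth factor pathway, 3 of 12 tested genes were called with Sting1 intact, beside 20.2% of all genes. DESeq2 called 5 there, the same 3 and Igfals and Igfbp4, both of them lower in each Mcl1Δhep than in each WT liver. Igf2bp3, a fetal RNA-binding protein that binds Igf2 transcripts, had 5.4, 4.41, and 2.69 CPM in Mcl1Δhep and 0.211, 0.564, and 0.363 CPM in WT livers (3.46, SE 0.60, adjusted p = 0.004). It rose likewise on the Sting1-/- background, with 6.05, 1.90, and 2.60 CPM against 0.204, 0.239, and 0.748 CPM (3.11, SE 0.58, adjusted p = 0.038), although that call was lost in 8 of the 12 fits without 1 library. Its change differed by 0.35 between backgrounds (SE 0.81, adjusted p = 0.864). Igfbp1, a secreted binding protein for insulin-like growth factors, rose by 2.49 (SE 0.80, adjusted p = 0.0475) with values from 28.8 to 166 CPM in Mcl1Δhep and 8.63 to 32.2 CPM in WT livers, which overlapped. Insr, the insulin receptor gene, fell by 0.87 on the log2 scale (SE 0.28, adjusted p = 0.046). It had 147, 64.7, and 68.0 CPM in Mcl1Δhep and 168, 155, and 190 CPM in WT livers, so the fall rested mainly on Mcl1Δhep replicates 2 and 3. DESeq2 also called Igfbp1 and Insr, and their calls were not followed in the other alternative fits. In the 3 other comparisons edgeR called none of the 12, with 3 at an unadjusted p under 0.05 with Mcl1 deleted (20.6% of all genes), 1 with Mcl1 intact (5.45%), and 0 for the difference (14.4%), and DESeq2 called 0 in each.

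Among genes of at least 1 CPM on average, the 5 whose log2 CPM followed H19 most closely over the 12 livers were Gja1 (Pearson r = 0.970), Parvb (0.951), Il27ra (0.948), Gna15 (0.939), and Clstn1 (0.934). The 3 with the most opposite pattern were Ccz1 (-0.949), 2310001H17Rik (-0.938), and Tbcel (-0.934). The 12 livers share 4 genotypes, so these values describe a common step between groups. Gja1, the gap junction gene for connexin 43, stood at 11.1 ± 1.29 CPM in Mcl1Δhep, 6.91 ± 1.20 in Mcl1Δhep Sting1-/-, 5.79 ± 0.395 in Sting1-/-, and 4.74 ± 1.25 CPM in WT livers (SD, n = 3 each), the same order of groups as H19. None of these 8 genes is on the lists of imprinted genes used here. Among the members, r with H19 was 0.71 for Mest, 0.69 for Plagl1, 0.62 for Igf2, 0.53 for Cdkn1c, 0.28 for Grb10, 0.12 for Peg3, and -0.36 for Igf2r, and Mest ranked 990 of the 15070 tested genes. These values rest on the H19 step between groups by which the genes were chosen: over the 9 livers without the Mcl1Δhep group, r was 0.39 for Mest, 0.05 for Plagl1, 0.75 for Igf2, 0.30 for Cdkn1c, 0.27 for Grb10, 0.61 for Peg3, and 0.18 for Igf2r.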

How the data were processed

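Total RNA of 12 mouse livers was sequenced, and the deposited values are unnormalized counts as integers for each Ensembl gene and liver. The submitters' processing notes name STAR, featureCounts, and GRCm39 without versions; the annotation release and the use of strand are not given in the sources used here. Groups were taken from the genotype labels, and nothing states that replicates came from separate litters or batches. Totals of 28826367 to 45266387 counts per library and 3 livers per group set the precision.

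The 10 members and all gene lists were chosen with earlier results of these data known. Gene names, positions, and exon lengths were taken from GENCODE vM39, which lacks 1018 of 40551 identifiers. Groups were compared by the quasi-likelihood test of edgeR 4.0.16 in R 4.3.3 (TMM factors, filterByExpr, glmQLFit, glmQLFTest, all 12 libraries, no covariates), with Benjamini-Hochberg adjustment over 15070 genes and a threshold of 0.05. The standard error is the fold change divided by the square root of the F statistic. CPM used TMM factors, log2 CPM a prior count of 2, and TPM the summed exon lengths. The interval of summed counts is the exact binomial interval at 95%, conditional on their sum. The procedure was tested on simulated data. DESeq2 1.42.0, other factors and filters, covariates, a replicate block, fits of 2 groups, and leaving out each library were the alternatives. Besides the members, genes of the lists with an adjusted p under 0.05 in any comparison, the 8 genes most like or unlike H19, and Mcl1 and Sting1 were named by rule. Genes near H19, uncalled genes of the postnatal list, and Tspan32, Kcnq1, and Kcnq1ot1 were named after their values were seen. Sequences of miR-675 are from RefSeq. H19 and Mir675 were given no p-value. Figures were drawn with matplotlib 3.10.9 in Python 3.11.15.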

Additional observations from a re-analysis of the deposited data

How the results depend on the processing

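With Mcl1 deletion where Sting1 was intact, 1 of 7 members was called in the reported fit, 2 without the filter on low counts (Mest and Dlk1), and 0 in a fit of the 2 groups alone or with Y-linked expression as a covariate. Leaving out 1 library in turn gave 0 to 2: 0 without WT replicate 2 or 3, and 2 without Mcl1Δhep replicate 1 or 3 or WT replicate 1. Of the wider list with Mir675, 9 were called, against 15 with DESeq2, 2 in the fit of 2 groups, 5 with the Y-linked covariate, and 1 with the share of small structured RNA as a covariate, and 3 to 12 with 1 library left out. Without Mir675, whose reads are those of H19, DESeq2 called 1 gene of that list (Dcn) on the Sting1-/- background. With Mcl1 deleted it called 2 (Rian and Snurf), and for the difference 0. Each of these counts was 0 in the reported fit. Without Mcl1Δhep replicate 1, 1 member (Igf2r) and 8 genes of the wider list with Mir675 were called with Mcl1 deleted. For the difference, 1 member (Igf2r) and 3 genes of that list were called. The ranges with 1 library left out were thus 0 to 1, 0 to 8, 0 to 1, and 0 to 3. Over all genes, these ranges were 0 to 3108 with Mcl1 deleted and 0 to 1574 for the difference. The number of all genes called with Sting1 intact fell from 3050 to 417 with the small RNA covariate, to 1178 in the fit of 2 groups, and to 1531 with the Y-linked covariate. The order of the 10 members by level was the same with RPKM in place of TPM. The 2-group fit could not be fitted for the difference, which needs 4 groups. The causes were not tested.

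Several log2 fold changes near 0 changed sign. With Sting1 intact, Grb10 was 0.00215 with a minimum of 1 CPM and 0.24 with the small RNA covariate, and Peg3 was 0.23 with that covariate. With the Y-linked covariate, Peg3 was 0.060, Cdkn1c 0.066, and Zfp445 -0.088 on the Sting1-/- background, Igf2 0.15 with Mcl1 deleted, Peg3 -0.25 with Mcl1 intact, and Grb10 -0.052 for the difference. With the small RNA covariate, Zfp445 was -0.012 on the Sting1-/- background, Igf2 0.14 and Peg3 -0.085 with Mcl1 deleted, Grb10 0.11 with Mcl1 intact, and Peg3 0.43 for the difference. Leaving out 1 library moved Peg3 from -0.42 to 0.23 and Grb10 from -0.22 to 0.12 with Sting1 intact, and Rian from -0.12 to 0.13 and Zfp445 from -0.048 to 0.15 on the Sting1-/- background. With Mcl1 deleted, Igf2 ranged from -0.35 to 0.22 and Peg3 from -0.056 to 0.22. With Mcl1 intact, Peg3 ranged from -0.20 to 0.45 and Grb10 from -0.27 to 0.063. For the difference, Peg3 ranged from -0.29 to 0.36 and Grb10 from -0.058 to 0.27.

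The replicate numbers did not pair the livers: of 18 pairs with the same number 3 had a correlation of deviations over 0.1 (range -0.54 to 0.25). With a replicate block, Mest kept its call, Rian lost it with Sting1 intact (1.98, adjusted p = 0.0509) and was -0.021 on the Sting1-/- background, and the calls of Igf2bp3 and Uhrf1 there were lost (adjusted p = 0.0696 and 0.0665). At 0 to 20 counts per liver, Dlk1, Meg3, and Igf2 allow only large changes to be seen.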
